A study of Mus musculus with 7 samples.

Results

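The genes of the N-glycosylation and hexosamine pathway were followed in 7 RNA-seq libraries of mouse embryonic fibroblasts (MEFs), with 6 stress conditions and a control represented by 1 library each. The 40 genes were chosen by symbol from the literature of the pathway, with earlier results of these data known. All 40 were among the 49382 rows of the expression table. They fell into 4 steps, with 6 genes of hexosamine synthesis and use, 21 of dolichol-linked sugar assembly, 8 of oligosaccharyltransferase and 5 of glycan trimming. The MEFs were wild type, came from embryos of E13.5 to E14.4 without the head and the fetal liver, and were used at passage 3 to 7, so each library is of cultured cells from the remaining embryo and not of 1 tissue.

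The control library carries no treatment label beyond control, and no time. Glucose depletion and glutamine depletion were 10 hours in medium without that nutrient, and hypoxia was 10 hours at 0.1% oxygen. ER stress was 1 μM thapsigargin for 10 hours, which blocks the pump that fills the calcium store of the endoplasmic reticulum (ER). For oxidative stress the cells had 3 hours in 10 μM sodium arsenite (NaAsO2), and for osmotic stress 3 hours in 100 mM NaCl, so these 2 libraries differ from the others in time as well. No condition had a replicate, so no change could be set against the spread between cultures and no p-value is given.

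N-glycans are branched sugars that are attached to asparagines of secreted and membrane proteins in the ER. The hexosamine pathway turns fructose-6-phosphate and glutamine into UDP-N-acetylglucosamine (UDP-GlcNAc), the sugar donor that starts the chain. A set of ALG enzymes then builds an oligosaccharide on the lipid dolichol, the oligosaccharyltransferase complex moves it onto the nascent protein, and glucosidases and mannosidases trim it while lectin chaperones read it as a sign of the folding state. Fibroblasts secrete large amounts of glycosylated matrix, and parts of the pathway are known targets of the unfolded protein response.

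Values are TPM, a length-corrected share of each library that is scaled to a total of 1000000. A change is log2(TPM + 1) of a condition minus that of the control, which understates changes of low genes, and a gene was counted as changed past 2-fold, that is past 1 on this scale. The read depth is unknown because TPM keeps no counts. All 40 genes passed the filter on low values (a 7-library mean of 2 TPM or more), as did 12909 genes in all, and the means of 39 reached 10 TPM. Between 19819 and 21154 genes were above 0 TPM in a library.

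Marker genes of fibroblasts, of other cell types and of the treatments were read first. Collagen, vimentin and other fibroblast markers (8 genes) summed to 8721 to 16202 TPM, while the 5 macrophage markers summed to at most 13.7 TPM, the 3 endothelial markers to at most 5.37 TPM, the 3 epithelial markers to at most 0.906 TPM and the 3 erythroid markers to at most 0.503 TPM. The ER chaperone gene Hspa5 was at 12611 TPM in ER stress against 1165 TPM in the control, Hmox1 at 6055 against 266 TPM in oxidative stress, Akr1b3 at 575 against 90.5 TPM in osmotic stress, Bnip3 at 797 against 26.7 TPM in hypoxia and Txnip at 16.1 against 70.7 TPM in glucose depletion. Not all of these were particular to 1 treatment, since Txnip was lower still in osmotic stress at 7.22 TPM and Hmox1 was at 1802 TPM in ER stress, and no marker of glutamine depletion was included. The fibroblast sum was lowest in ER stress, where Col3a1 and Pdgfrb were past 2-fold below the control. In bulk libraries such as these, fewer cells of a type and less RNA per cell cannot be told apart.

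In control MEFs the steps differed in level. The 8 oligosaccharyltransferase genes together held 1679 TPM and were led by the catalytic subunit gene Stt3a at 365 TPM, whereas the 21 genes of dolichol-linked assembly held 784 TPM, the trimming genes 408 TPM and the hexosamine genes 203 TPM. The lowest gene was Alg6, a glucosyltransferase of the lipid-linked sugar, at 7.04 TPM. Gfpt1, which encodes the rate-limiting enzyme of hexosamine synthesis, was at 46.6 TPM, and its paralog Gfpt2 at 8.51 TPM.

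Most changes of the pathway were in ER stress. Because the genes were chosen with earlier results of these data known, their shares describe the list and are no independent test. Of the 40 genes, 9 rose past 2-fold and none fell, which is 22.5% up, whereas 8.6% of all 12909 genes rose and 11.0% fell. The median log2 change of the 40 genes was 0.52 against 0.00 over all genes, and 30 of 40 lay above 0 against 49.9% of all genes. In 24 of the 40 genes, 60.0%, the ER stress library was the highest of the 7, as it was for 33.2% of all genes. Among the 8819 genes whose mean reached 10 TPM, 7.67% rose past 2-fold in ER stress and 9.47% fell. At 1.5-fold, 19 of the 40 genes were up and 2 down (Tusc3 and Man1a), against 19.0% and 21.3% of all genes, and at 3-fold 2 were up (Gnpnat1 and Alg12), against 3.39%. When 0.1 TPM was added as the pseudocount, 11 of the 40 genes were up past 2-fold, Pgm3 and Magt1 being the added ones, against 9.67% of all genes. With 5 TPM as the pseudocount, Gmppb and Alg11 were no longer past 2-fold in ER stress. The summed TPM of the 40 genes was 4840 in ER stress and 2848 to 3334 in the other libraries, including the control at 3074. The fibroblast markers were at their lowest sum in this same library, 8721 against 14059 TPM in the control, and their part in these shares was not tested.

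**Figure D1:**
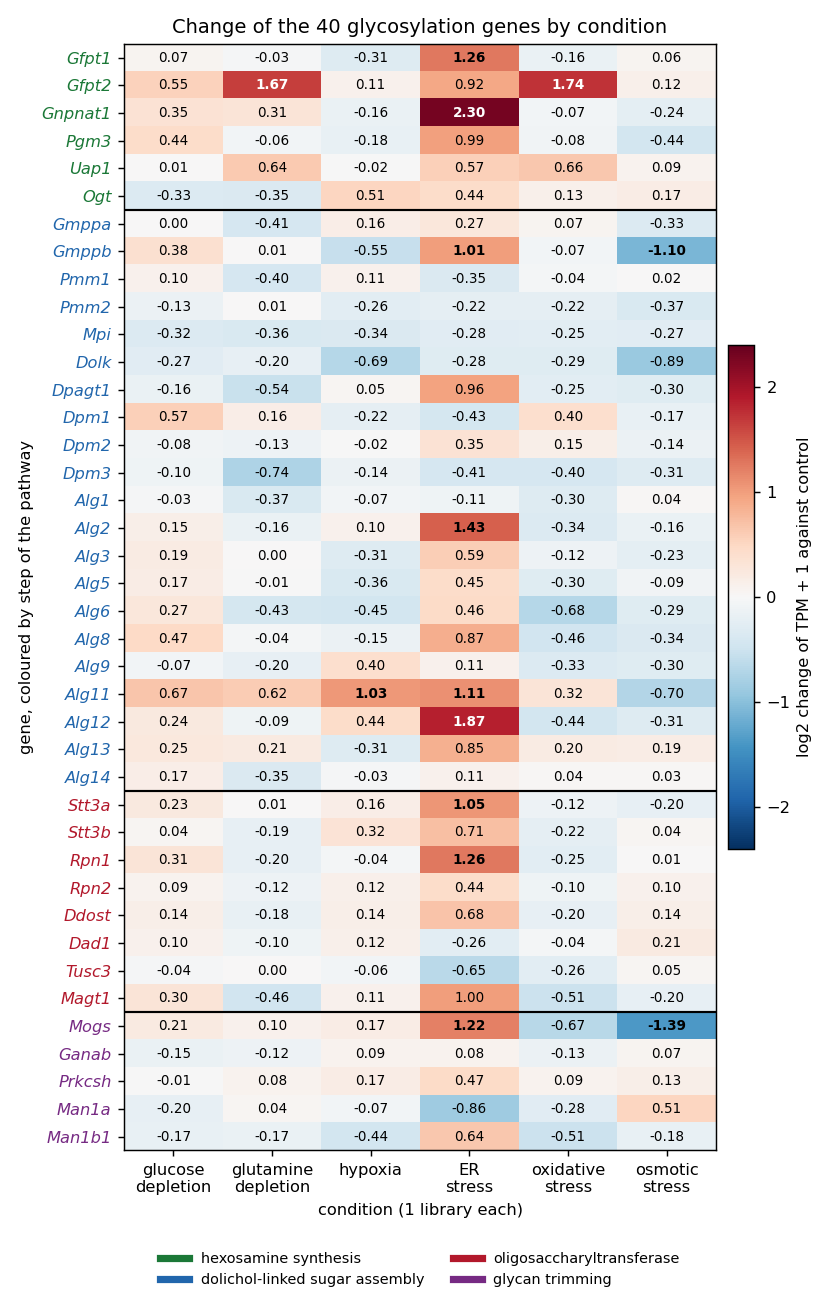
Log2 change of TPM + 1 against the control (colour and printed value) for the 40 genes (rows, coloured by step) in the 6 conditions (columns, 1 library each). Values past 2-fold are bold, and 9 of the 14 bold values stand in the ER stress column.

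All 6 hexosamine genes had values above the control in ER stress, where 49.9% of all genes did. The median log2 change of the step was 0.96. Gnpnat1, which encodes the acetyltransferase that makes N-acetylglucosamine-6-phosphate (chromosome 14, 45376334 to 45404913, minus strand), was at 24.6 TPM in the control, 31.6 in glucose depletion, 30.8 in glutamine depletion, 21.9 in hypoxia, 125 in ER stress, 23.3 in oxidative stress and 20.6 in osmotic stress. The ER stress library stood alone at 3.96 times the next highest, and its log2 change of 2.30 was the largest among the 40 genes. Gfpt1 (chromosome 6, 87042846 to 87092197, plus strand) was at 46.6, 49.1, 45.7, 37.5, 113, 41.7 and 48.5 TPM in the same order of libraries. It too was high in ER stress alone (log2 change 1.26), and the other 6 libraries lay within 37.5 to 49.1 TPM.

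The remaining hexosamine genes were nearer to the control in ER stress. Pgm3, the phosphomutase of the pathway, was at 59.0 TPM against 29.2 in the control (0.99), and Gfpt2 at 17.0 against 8.51 TPM (0.92), both under 2-fold on the log2(TPM + 1) scale. For Pgm3 this rests on the pseudocount, since its ratio of TPM without one was 2.02. Uap1, which makes UDP-GlcNAc itself, was at 84.0 against 56.2 TPM (0.57). Ogt, the enzyme that uses UDP-GlcNAc to modify nuclear and cytosolic proteins, was at 52.0 against 38.1 TPM (0.44). Summed over the step, the hexosamine genes were at 451 TPM in ER stress, 2.22 times the control.

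A large part of Gnpnat1 cannot be told from its neighbour by sequence. Of its 31-base stretches, the length at which Kallisto matches reads, 79.4% also occur in transcripts of other genes, mainly of Styx, a pseudophosphatase gene. The table lists Styx at 10.0 TPM for the control and at 17.0 TPM for ER stress, so even the sum of both genes was higher in ER stress than in any other library. Among the other 9 genes that passed 2-fold in any condition, Gmppb shared 29.6% of its stretches, mainly with Rnf123, and the rest at most 2.23%.

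**Figure D2:**
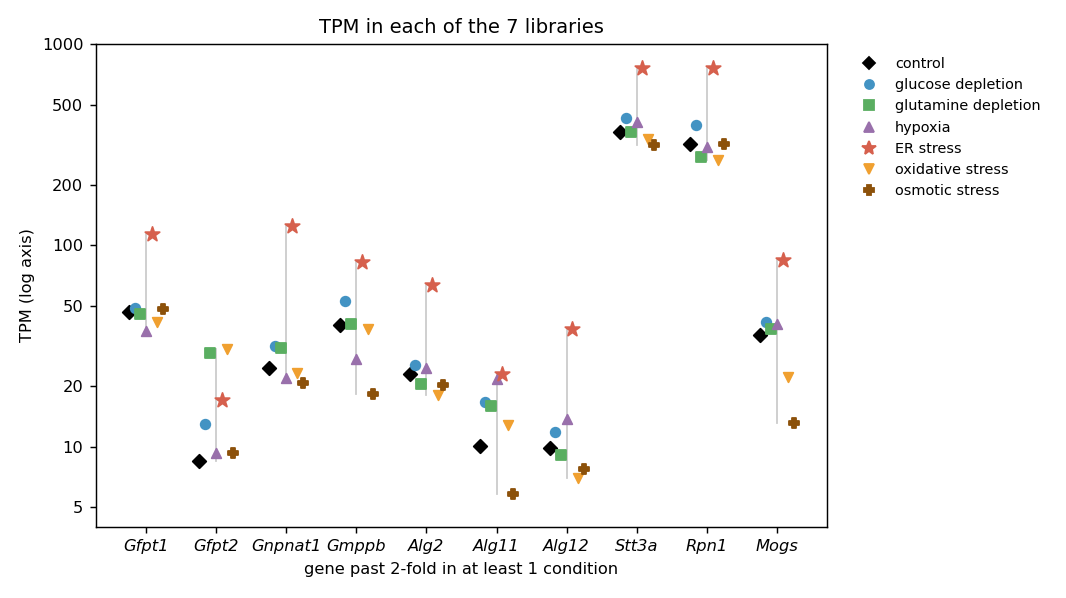
TPM (log axis) of the 10 genes that passed 2-fold in at least 1 condition, with 1 point per library. ER stress (red star) is the highest point for all of them except Gfpt2, which is highest in oxidative stress at 30.7 TPM and in glutamine depletion at 29.2 TPM.

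In dolichol-linked sugar assembly 4 of 21 genes rose past 2-fold in ER stress and none fell, against 8.6% and 11.0% of all genes. The median log2 change of the step was 0.35. The 4 genes that rose act at separate points of the chain. Gmppb makes the mannose donor GDP-mannose, Alg2 and Alg11 are mannosyltransferases on the cytosolic face of the ER, and Alg12 is a mannosyltransferase in its lumen. The other 17 genes lay between -0.43, for the dolichol-phosphate-mannose synthase gene Dpm1, and 0.96, for Dpagt1, which starts the chain and was at 65.1 against 32.9 TPM.

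Alg12 (chromosome 15, 88805244 to 88819318, minus strand) was at 9.82 TPM in the control, 11.8 in glucose depletion, 9.13 in glutamine depletion, 13.7 in hypoxia, 38.5 in ER stress, 6.99 in oxidative stress and 7.74 in osmotic stress. The ER stress value was 2.82 times the next highest and its log2 change was 1.87. Alg2 (chromosome 4, 47465067 to 47474333, minus strand) was at 22.9, 25.5, 20.4, 24.6, 63.7, 18.0 and 20.3 TPM in this order, again with ER stress alone far above the rest (1.43).

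Gmppb (chromosome 9, 108049242 to 108052801, plus strand) was at 40.4 TPM in the control, 53.0 in glucose depletion, 40.7 in glutamine depletion, 27.2 in hypoxia, 82.3 in ER stress, 38.3 in oxidative stress and 18.4 in osmotic stress. It passed 2-fold narrowly upward in ER stress (1.01) and narrowly downward in osmotic stress (-1.10). After TPM were rescaled without mitochondrially encoded genes, its log2 change in ER stress was 0.99, below 2-fold. Its subunit partner Gmppa, the regulatory part of the same enzyme, stayed between 70.7 and 114 TPM over the 7 libraries, with 0.27 in ER stress and -0.33 in osmotic stress.

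Alg11 (chromosome 8, 22060721 to 22071627, plus strand) was at 10.1 TPM in the control, 16.7 in glucose depletion, 16.0 in glutamine depletion, 21.7 in hypoxia, 22.9 in ER stress, 12.8 in oxidative stress and 5.83 in osmotic stress. Its log2 change was 1.11 in ER stress and 1.03 in hypoxia, but the control was the second lowest of the 7 libraries. With the median of the other 5 condition libraries as the reference in place of the control, the values were 0.49 and 0.42, both under 2-fold.

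Several enzymes of this step were below the control in ER stress without passing 2-fold. Pmm1 and Pmm2, which make mannose-1-phosphate, had log2 changes of -0.35 and -0.22. Mpi, which feeds the mannose branch from fructose-6-phosphate, had -0.28, the dolichol kinase gene Dolk had -0.28, and the small subunit gene Dpm3 had -0.41. Pmm1 was at 79.3 TPM in the control, 85.2 in glucose depletion, 59.9 in glutamine depletion, 85.4 in hypoxia, 61.9 in ER stress, 77.1 in oxidative stress and 80.1 in osmotic stress. Pmm2 was at 51.7, 47.0, 51.9, 43.1, 44.1, 44.3 and 39.7 TPM in this order, below Pmm1 in each library. Mpi, Dolk and Dpm3 were highest in the control library, at 30.0, 19.8 and 77.1 TPM, so all their changes were negative.

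The oligosaccharyltransferase genes summed to 2850 TPM in ER stress, 1.70 times the control, with a median log2 change of 0.69. Here 2 of 8 genes rose past 2-fold and none fell, against 8.6% and 11.0% of all genes. Stt3a, which encodes the catalytic subunit that acts during translation (chromosome 9, 36729344 to 36767679, minus strand), was at 365 TPM in the control, 429 in glucose depletion, 367 in glutamine depletion, 409 in hypoxia, 757 in ER stress, 336 in oxidative stress and 317 in osmotic stress (1.05 in ER stress). Rpn1, encoding ribophorin I (chromosome 6, 88084482 to 88105304, plus strand), was at 317, 394, 275, 307, 761, 266 and 320 TPM (1.26). For both genes ER stress was the highest library, at 1.76 times the next for Stt3a and 1.93 times for Rpn1.

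The subunits of this complex differed in their changes. Stt3b, the catalytic subunit that acts mainly after translation, was at 98.8, 102, 86.4, 124, 163, 84.7 and 102 TPM (0.71 in ER stress), and Ddost and Rpn2 had 0.68 and 0.44. Dad1, a small subunit gene, was lowest in ER stress at 132 TPM against 158 in the control (-0.26). Because TPM are corrected for length, genes can be set side by side within a library. Rpn1 was at 0.88 times the TPM of Rpn2 in the control and at 1.55 times in ER stress, and at 2.01 times that of Dad1 in the control and 5.78 times in ER stress.

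Magt1 and Tusc3 encode alternative oxidoreductase subunits of the complex that contains STT3B, and their changes differed in sign in ER stress, neither past 2-fold on the log2(TPM + 1) scale. Magt1 was at 61.9 TPM in the control, 76.6 in glucose depletion, 44.8 in glutamine depletion, 66.7 in hypoxia, 125 in ER stress, 43.1 in oxidative stress and 53.8 in osmotic stress. Its log2 change of 0.999 in ER stress lay just outside the 2-fold rule, while its ratio of TPM without the pseudocount was 2.01. Tusc3 was at 87.3, 85.1, 87.6, 83.5, 55.3, 73.0 and 90.6 TPM (-0.65 in ER stress). The ratio of Magt1 to Tusc3 TPM was 2.26 in ER stress, whereas it was 0.71 in the control and 0.51 to 0.90 in the other 5 libraries. ER stress was thus the single library in which Magt1 exceeded Tusc3.

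**Figure D3:**
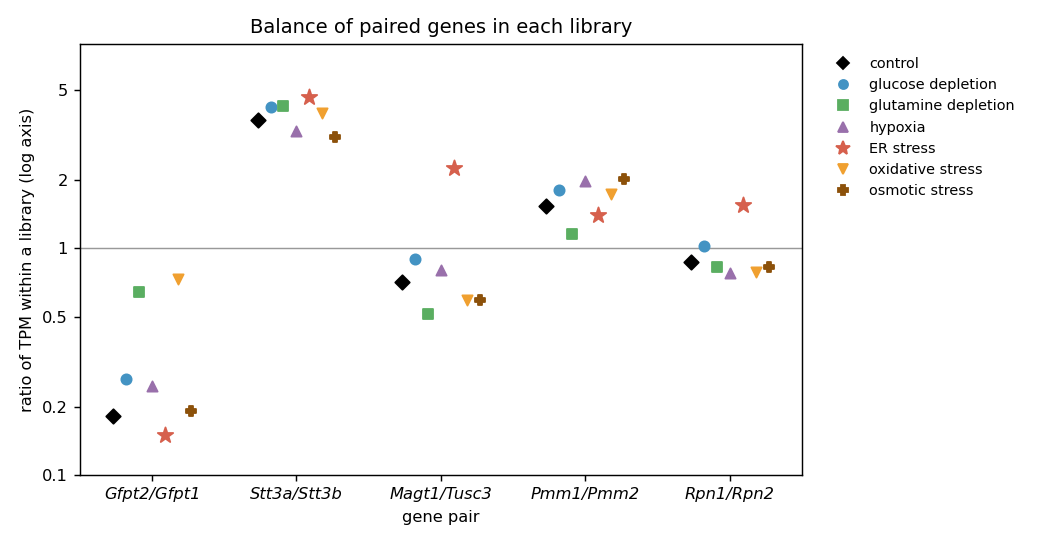
Ratio of TPM (log axis) of gene pairs within each of the 7 libraries, with a line at equal TPM. Magt1/Tusc3 is above 1 in ER stress (2.26) and below 1 in the other 6 libraries, and Gfpt2/Gfpt1 is highest in oxidative stress (0.74) and glutamine depletion (0.64).

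Of the 5 trimming genes, 1 rose past 2-fold in ER stress and none fell, against 8.6% and 11.0% of all genes. Mogs, which encodes glucosidase I and removes the outermost glucose (chromosome 6, 83115496 to 83118898, plus strand), was at 35.9 TPM in the control, 41.7 in glucose depletion, 38.5 in glutamine depletion, 40.7 in hypoxia, 84.8 in ER stress, 22.2 in oxidative stress and 13.1 in osmotic stress. It was high in ER stress (1.22) and lowest in osmotic stress (-1.39). The genes of glucosidase II, which removes the inner glucoses, were closer to the control in ER stress, with 0.08 for the catalytic subunit gene Ganab and 0.47 for Prkcsh. The mannosidase genes differed in sign there, with 0.64 for Man1b1 (99.8 against 63.6 TPM) and -0.86 for Man1a (12.7 against 24.0 TPM).

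The upstream sequence of the genes that rose in ER stress was searched for binding motifs of the unfolded protein response. RefSeq promoters on GRCm38.p6 were matched by symbol for 34 of the 40 genes, including 5 of the 9 that rose (Gfpt1, Alg12, Stt3a, Rpn1 and Mogs). In the 250 bases before the start, on both strands, the ER stress response element (ERSE, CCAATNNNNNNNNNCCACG, bound by ATF6 with NF-Y) was found in 1 member, Alg12, and in 0.113% of all 32851 promoters. The core ACGTG, shared by XBP1 and other factors, was found in 10 of 34 members, 2 of them among the 5 that rose and 8 among the other 29, and in 16.6% of all promoters or 21.8% of those of genes past the filter. The short ERSE-II (ATTGGNCCACG) and the ATF4 element (TGATGNAA) were found in no member promoter, and in 0.0304% and 3.45% of all promoters. Among promoters of genes past the filter these shares were 0.0517% and 1.88%, and that of the ERSE was 0.129%. The core reads on both strands where it lies in CACGTG, so 1 site can give 2 matches. Among other genes of N-glycan metabolism and marker genes with a matched promoter, the ERSE stood only in the chaperone genes Hspa5, Calr and Canx. Of these, Canx did not pass 2-fold in ER stress (0.82). Edem1, Edem2, Pdia3, Dhdds and Ddit3 rose past 2-fold there and had no ERSE in this window.

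Shown here are the windows of the 3 ER stress genes with a match and of Gfpt2, the member that rose in other conditions. Each runs 5′ to 3′ on the strand of the gene and ends at the base before the start, with the ERSE in capitals for Alg12 and the ACGTG core, or its reverse complement CACGT, in capitals for the rest. They lie at chr15:88819319-88819568 (minus strand) for Alg12, chr6:87042596-87042845 (plus) for Gfpt1, chr6:83115256-83115505 (plus) for Mogs and chr11:49793905-49794154 (plus) for Gfpt2.
Alg12: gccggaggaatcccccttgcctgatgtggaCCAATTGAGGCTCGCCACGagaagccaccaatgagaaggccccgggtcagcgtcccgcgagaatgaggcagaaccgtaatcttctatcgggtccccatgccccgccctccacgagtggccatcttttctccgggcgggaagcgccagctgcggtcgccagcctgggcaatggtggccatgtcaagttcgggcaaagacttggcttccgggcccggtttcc
Gfpt1: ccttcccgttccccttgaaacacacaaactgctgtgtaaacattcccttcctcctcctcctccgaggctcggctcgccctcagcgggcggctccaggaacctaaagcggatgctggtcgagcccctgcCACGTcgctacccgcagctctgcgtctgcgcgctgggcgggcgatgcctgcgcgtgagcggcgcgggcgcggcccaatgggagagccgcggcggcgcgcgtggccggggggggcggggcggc
Mogs: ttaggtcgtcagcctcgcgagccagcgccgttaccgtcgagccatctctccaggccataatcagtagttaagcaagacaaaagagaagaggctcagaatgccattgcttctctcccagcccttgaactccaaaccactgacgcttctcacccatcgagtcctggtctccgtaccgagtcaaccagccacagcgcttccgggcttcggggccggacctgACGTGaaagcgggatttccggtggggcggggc
Gfpt2: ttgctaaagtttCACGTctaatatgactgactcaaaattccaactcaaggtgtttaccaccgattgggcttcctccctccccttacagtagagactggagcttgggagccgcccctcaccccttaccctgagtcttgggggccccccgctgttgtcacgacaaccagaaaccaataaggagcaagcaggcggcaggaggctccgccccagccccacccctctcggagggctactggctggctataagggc

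The Alg12 element began 220 bases before the start, and the cores lay 122 bases before it in Gfpt1, 32 in Mogs and 238 in Gfpt2, counted to their first base. These matches describe letters in a window, and whether they act was not tested. Gfpt2 passed 2-fold in glutamine depletion and oxidative stress. In ER stress it was at 17.0 against 8.51 TPM (0.92).

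Outside ER stress the largest changes of the pathway were those of Gfpt2. This isoform of the rate-limiting enzyme (chromosome 11, 49794178 to 49838613, plus strand) was at 8.51 TPM in the control, 13.0 in glucose depletion, 29.2 in glutamine depletion, 9.28 in hypoxia, 17.0 in ER stress, 30.7 in oxidative stress and 9.31 in osmotic stress. Glutamine depletion and oxidative stress were the high libraries, with log2 changes of 1.67 and 1.74, and the control was the lowest of the 7. Against the median of the other 5 condition libraries the values were 1.11 and 1.18, still past 2-fold. Gfpt1 lay at -0.03 and -0.16 in these libraries, so the TPM of Gfpt2 relative to Gfpt1 went from 0.18 in the control to 0.64 in glutamine depletion and 0.74 in oxidative stress, and was 0.15 in ER stress. Gfpt1 remained the higher of the isoforms in each library.

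Uap1, at the end of the hexosamine branch, stayed within 2-fold and was highest in oxidative stress, glutamine depletion and ER stress, at 56.2 TPM in the control, 56.7 in glucose depletion, 87.9 in glutamine depletion, 55.5 in hypoxia, 84.0 in ER stress, 89.1 in oxidative stress and 59.9 in osmotic stress. The 2 comparisons share 1 control library, so a low control value would enter both. Gfpt2 was the 1 gene of 40 that rose in glutamine depletion, where 3.21% of all genes rose and 3.21% fell, and the 1 gene that rose in oxidative stress, where 3.94% rose and 4.85% fell.

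Glutamine depletion left the rest of the pathway near the control, with a median log2 change of -0.11 over the 40 genes against -0.09 over all genes, and 14 of 40 above 0 against 38.3%. The lowest value was that of Dpm3, at 45.7 against 77.1 TPM (-0.74), and Dpagt1 had -0.54. At 1.5-fold 3 genes were up (Gfpt2, Uap1 and Alg11) and 1 was down (Dpm3), against 7.47% and 10.6% of all genes. In oxidative stress the median was -0.18 against -0.16 over all genes, and 10 of 40 genes were above 0 against 32.6%. At 1.5-fold 2 genes were up (Gfpt2 and Uap1) and 2 down (Alg6 and Mogs), against 7.27% and 16.2% of all genes. The lowest were Alg6, at 4.02 against 7.04 TPM (-0.68), and Mogs (-0.67). All 8 oligosaccharyltransferase genes were below the control there, with the lowest value for Magt1 (-0.51), and the ER chaperone gene Hspa5 had -0.57.

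In osmotic stress 2 of 40 genes fell past 2-fold, Mogs (-1.39) and Gmppb (-1.10), and none rose, whereas 8.76% of all genes fell and 3.08% rose. The share of the pathway, 5.00%, was below that of all genes. After the changes were centred on the median of all genes, Gmppb was at -0.97 and Mogs alone stayed past 2-fold. Dolk, at 10.2 against 19.8 TPM (-0.89), and Alg11 (-0.70) were the next lowest. At 1.5-fold these 4 genes were down and none was up, against 19.5% and 6.56% of all genes, and at 3-fold none was down, against 3.37%. Of the 40 genes 17 were above 0, against 36.7% of all genes. Of the 21 genes of dolichol-linked assembly 17 were below 0, and the summed TPM of that step was 659 against 784 in the control. Oligosaccharyltransferase genes lay between -0.20 and 0.21. Man1a, lowest in ER stress, was highest in osmotic stress at 34.5 TPM (0.51).

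In hypoxia Alg11 was the 1 gene of 40 that rose and none fell, against 3.57% and 2.64% of all genes. Ogt was at 54.7 TPM, its highest value (0.51), and Dolk (-0.69) and Gmppb (-0.55) had the lowest changes. At 1.5-fold Alg11 was up and Dolk down, against 7.23% and 8.1% of all genes, and at 3-fold no gene of the 40 was up, against 2.14%. Above 0 were 18 of 40, against 42.8%. Glucose depletion took none of the 40 genes past 2-fold in either direction, against 1.83% of all genes up and 2.41% down. The values ran from -0.33, for Ogt, to 0.67, for Alg11, which was the 1 gene past 1.5-fold upward, and none was past it downward, against 3.47% and 6.23% of all genes. The median was 0.10 against -0.02 over all genes, and 26 of 40 genes, 65.0%, were above 0 against 44.5% of all genes. The largest values after Alg11 were those of Dpm1 (0.57), Gfpt2 (0.55), Alg8 (0.47) and Pgm3 (0.44), and Hspa5 had 0.54 in this library. Over the 6 conditions 10 of the 40 genes passed 2-fold at least 1 time and 30 in none. Of all 12909 genes 34.4% passed in 1 condition or more, and of the 8819 whose mean reached 10 TPM 25.9%.

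Other genes of N-glycan metabolism, 43 in 5 lists, were read in the same way, and 42 of them passed the filter. In ER stress 4 of 10 genes of the lectin folding cycle and of glycan-dependent disposal rose past 2-fold and none fell, against 8.6% and 11.0% of all genes, with a median log2 change of 0.87. These were Edem1, at 238 against 83.5 TPM, and Edem2 (1.05), which mark misfolded glycoproteins for disposal, the disulfide isomerase gene Pdia3 (1.43), and Calr, the lectin chaperone calreticulin, at 5242 against 2293 TPM (1.19). The glycoprotein folding sensor gene Uggt1 had 0.92, and its paralog Uggt2 had -0.56. In osmotic stress 1 gene of this list, Edem3, rose (1.08), where 3.08% of all genes rose. Of the dolichol synthesis genes, 1 of 7 rose in ER stress, Dhdds, a subunit of the enzyme that makes the dolichol chain (1.04), and a single gene among 7 is close to the 8.6% of all genes. None of 4 further oligosaccharyltransferase subunit genes passed 2-fold, with Ostc at 438 against 221 TPM (0.98) and Ost4 at 215 against 320 TPM (-0.57). Ost4 shared 52.4% of its 31-base stretches with other genes.

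Genes of glycan maturation in the Golgi were mostly below the control in ER stress. This list holds enzymes and the nucleotide-sugar transporter genes Slc35a1, Slc35a2 and Slc35a3. Of the 14 that passed the filter, 2 fell past 2-fold, none rose, and 13 were below 0, with a median log2 change of -0.56 against 0.00 over all genes. The 2 that fell are near the share of all genes, 11.0%, while 49.9% of all genes were above 0. St6gal1, which adds terminal sialic acid, was at 1.51 against 4.79 TPM (-1.20), and Mgat5, which opens a further branch, at 5.54 against 13.2 TPM (-1.12). The mannosidase genes Man2a1 (-0.89), Man1c1 (-0.81) and Man1a2 (-0.79) did not pass 2-fold. Mgat2 was the exception at 156 against 93.3 TPM (0.73). The ER stress library was the lowest of the 7 for 10 of these 14 genes, as it was for 23.8% of all genes. Mgat4a, at 0.349 to 1.99 TPM, did not pass the filter.

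**Figure D4:**
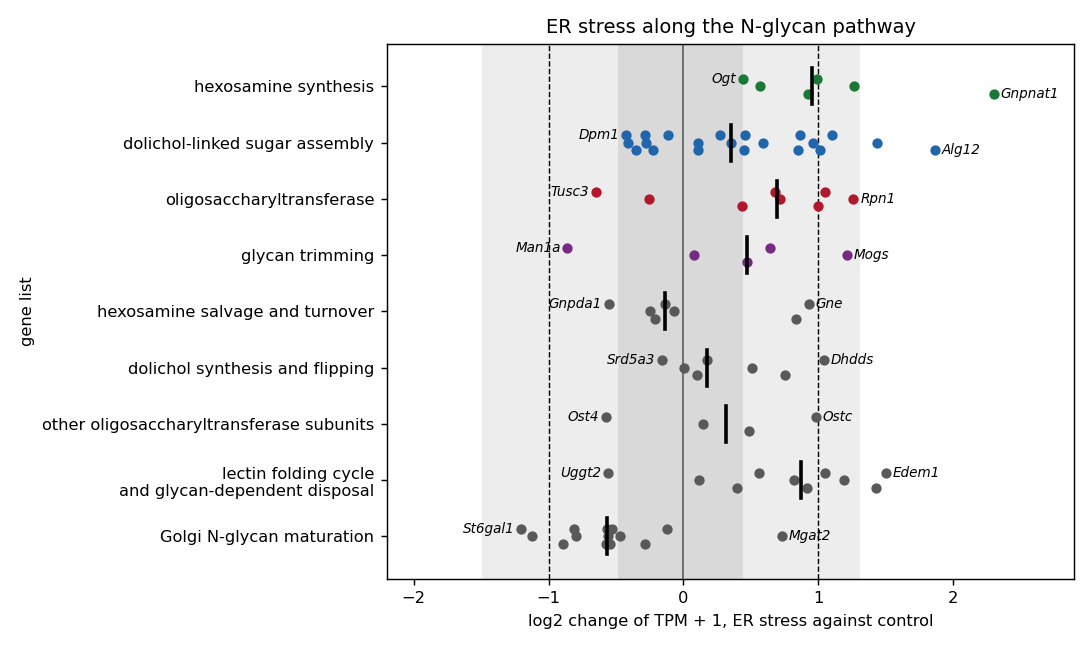
Log2 change of TPM + 1 in ER stress against the control for each gene (points). The 4 steps (coloured) come first, in order of the pathway, and the 5 further lists (grey) follow. Black bars mark the list medians, and the extreme genes are named. Grey bands hold the central 50% and 90% of all 12909 genes, dashed lines mark 2-fold, and the Golgi list has its median at -0.56 while the 4 steps have theirs between 0.35 and 0.96.

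Of 7 genes that salvage hexosamines or turn them over, 1 rose and 1 fell past 2-fold in glutamine depletion, where 3.21% of all genes rose and 3.21% fell, and none passed in the other 5 conditions. At 1.5-fold 2 were down in glucose depletion, against 6.23% of all genes, and 2 were up in ER stress, against 19.0%. In glutamine depletion 1 was up and 1 down, against 7.47% and 10.6% of all genes. Hypoxia had 1 up, against 7.23%, and osmotic stress 1 down, against 19.5%. Mgea5, which encodes the enzyme that removes the sugar Ogt attaches, was at 26.4 TPM in the control, 34.2 in glucose depletion, 60.8 in glutamine depletion, 44.4 in hypoxia, 47.8 in ER stress, 39.0 in oxidative stress and 31.2 in osmotic stress (1.17 in glutamine depletion). It was highest in glutamine depletion, while Ogt was lowest there, at 29.8 against 38.1 TPM (-0.35). For Mgea5 the control was the lowest of the 7 libraries, so all its changes were positive. Gnpda1, the deaminase that returns glucosamine-6-phosphate to fructose-6-phosphate, was at 81.2, 52.2, 29.7, 87.8, 55.0, 70.7 and 52.1 TPM in this order, and was lowest in glutamine depletion (-1.42). Its paralog Gnpda2 stayed between 24.4 and 32.1 TPM. In that condition Gfpt2, which runs the reaction opposite to Gnpda1 with glutamine as the donor, was thus past 2-fold above the control and Gnpda1 past 2-fold below it. For Gnpda1 only hypoxia was above the control, and 14.4% of its 31-base stretches also occur in other genes. Gnpda1 and Mgea5 were not read against the median of the other 5 condition libraries.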

How the data were processed

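All 7 libraries were read from 1 table. Per the labels and the methods, the authors made stranded mRNA libraries, sequenced them paired-end with 76 bp from each end, aligned the reads with Kallisto 0.43.1 at default settings to the GRCm38 cDNA (Ensembl release 90), and then deposited TPM per gene, the sum of its transcripts. Kallisto's default settings do not use strand, so reads of overlapping genes on opposite strands cannot be told apart. Each library sums to 1000000 TPM, so a gene's value depends on how much of the library other genes take.

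From these TPM, log2(TPM + 1) was computed, the control was subtracted, and genes whose mean reached 2 TPM were kept. The pseudocount of 1 TPM and the threshold of 2-fold follow the study's methods. Full values are given for Gfpt1, for each member past 2-fold and for 4 pairs of related genes, and other members by range. Of the further pathway genes, those past 2-fold were to be named, and Uggt1, Uggt2, Ostc, Ost4, Gnpda2, Mgat2, Man2a1, Man1c1 and Man1a2 were added after their values were seen. The members and lists were chosen with earlier results of these data known. Locations came from GENCODE M21 (GRCm38) by Ensembl identifier. The 31-base stretches of each gene's transcripts were compared with all other GENCODE M21 transcripts on both strands. Alternatives were pseudocounts of 0.1 and 5 TPM, no filter or a mean of 10 TPM or more, changes centred on the all-gene median, TPM rescaled without mitochondrially encoded genes, the median of the other 5 condition libraries as the reference, and thresholds of 1.5-fold and 3-fold. A planned comparison of protein sequences was not made. The 2-fold call was tested on simulated data, with changes larger than 2-fold put into 1 library. The other steps were not tested in this way. Scripts ran under Python 3.11.15 with pandas 2.3.3, numpy 2.4.6 and, for plots, matplotlib 3.10.9.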

Additional observations from a re-analysis of the deposited data

Results flagged for a closer look

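Mogs and Gmppb passed 2-fold upward in ER stress and downward in osmotic stress. For Mogs the log2 changes were 1.22 and -1.39, a difference of 2.60, and for Gmppb 1.01 and -1.10, a difference of 2.11. With 1 library per condition the difference was not tested, and the libraries differ in time, 10 hours against 3 hours. Mogs shares none of its 31-base stretches with another gene, whereas Gmppb shares 29.6%. Rnf123, with which Gmppb shares most, was at 15.9 TPM in the control, 13.0 in ER stress and 15.2 in osmotic stress.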

How the results depend on the processing

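Each count and median was recomputed under the alternatives, and 132 of these values stayed within 1.5 times the count or within 0.1 of the median while 18 did not. With 1 library per condition no replicate could be left out and no paired analysis was possible. The threshold moved counts most. At 1.5-fold, 19 members were up and 2 down in ER stress, 3 up and 1 down in glutamine depletion, 2 up and 2 down in oxidative stress, 1 up in glucose depletion, 1 down in hypoxia and 4 down in osmotic stress. At 3-fold, 2 were up in ER stress, 0 up in hypoxia and 0 down in osmotic stress. With a pseudocount of 5 TPM, 0 were up in hypoxia and 1 was down in osmotic stress, and Gmppb and Alg11 were no longer up in ER stress. With the median of the other 5 condition libraries as the reference, 0 were up in hypoxia. After centring on the median of all genes, 1 was down in osmotic stress, and the medians of the members were -0.022 in oxidative stress and -0.047 in osmotic stress. Of the 14 changes past 2-fold, none reversed under any alternative, and Gfpt2 (both conditions), Gnpnat1 and Alg12 stayed past each threshold used. Without a read depth, counting error could not be given.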
